A study of Pimephales promelas with 26 samples.

Results

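The 2 transcripts described here encode an intestinal peptide transporter, slc15a1a (XM_039690752.1), and a water channel, aqp8a.1 (XM_039665763.1), of Pimephales promelas, the fathead minnow, a cyprinid fish widely kept for toxicity tests. They are 2 of the 57299 transcripts in the deposited count table. Both were picked by name after edgeR's quasi-likelihood test had placed them among the 13 transcripts called lower at 47.2 µg/L fluoxetine than in water. Their lower levels there led to the choice, so they are given as a description with no test. Whole larvae were pooled, 20 to a library, and poly(A)-selected RNA was sequenced at 7 days of age after exposure through the water from 6 h after fertilization at 23 °C. Fluoxetine is an antidepressant that blocks the serotonin transporter, and the series asks at which concentrations expression starts to depart from control, beside harm to the animal. Of the 26 libraries, 5 came from water without fluoxetine. Measured fluoxetine concentrations, in µg/L, were 0.19 in 3 libraries, 0.74 in 5, 3.38 in 5, 10.2 in 5 and 47.2 in 3. The labels name no strain, sex or genotype, and they give 20 embryos to each replicate without saying where the embryos came from.

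In vertebrates, the slc15a1 protein (PepT1) sits in the brush border of absorptive enterocytes and takes up short peptides from digested protein together with protons. The bony fish genes slc15a1a and slc15a1b are copies of the same ancestral gene. Aquaporins of the aqp8 class are membrane channels for water, and mammalian AQP8 also passes ammonia and hydrogen peroxide and is found in intestine, pancreas and liver. In the reference gene table, whose assembly fPimPro1.hap1.1 can differ from the authors' build, aqp8a.1 lies between its tandem neighbour aqp8a.2 and lcmt1, and slc15a1a lies beside stk24a.

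The 26 libraries held between 13515478 and 27614956 estimated counts, so a floor of 3 counts stood at 0.109 to 0.222 counts-per-million (CPM). The slc15a1a transcript had between 492 and 1999 counts per library, and aqp8a.1 between 919 and 2687. Each was the sole deposited transcript paired with its gene, and its estimated counts were whole numbers in all 26 libraries (tolerance 1e-06), whereas 80.2% of transcripts above 0 had a fraction in some library. Counting error alone would give each value an error of 2.24% to 4.51% for slc15a1a and of 1.93% to 3.30% for aqp8a.1. The coefficient of variation within groups ranged from 3.66% to 27.6% for slc15a1a and from 4.51% to 19.01% for aqp8a.1. Enterocyte transcripts were present in every library, since the 5 defining enterocyte genes vil1, cdx1b, cdh17, fabp2 and cldn15la were at 0 in none. Replicate B at 0.19 µg/L stood apart somewhat, with a median correlation of 0.833 with the other libraries (all others 0.844 to 0.898). Fragments were longer at 0.19 µg/L (248 to 258 bp) and 0.74 µg/L (250.4 to 263 bp) than in water (235 to 239.6 bp).

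The slc15a1a level was nearly the same in water and at 0.74 µg/L, somewhat lower at 3.38 µg/L, and about 49.4% of the water level at 47.2 µg/L. In water, replicates A to E had 60.5, 70.9, 68.3, 78.6 and 70.5 CPM (69.8 ± 6.49, SD, n = 5). At 47.2 µg/L, replicates A, B and C had 45.5, 28.5 and 29.5 CPM (34.5 ± 9.53, SD, n = 3). All 3 lay below every other library of the study, with replicate A well above the other two. At 0.19 µg/L the 3 libraries had 61.4, 57.2 and 70.2 CPM (62.9 ± 6.59, SD, n = 3), and at 0.74 µg/L the 5 had 70.4, 67.8, 73.4, 72.9 and 68.3 CPM (70.6 ± 2.58, SD, n = 5). Both groups lay within or close to the range in water, and the group at 0.74 µg/L was the tightest of the 6. At 3.38 µg/L, replicates A to E had 47.3, 48.4, 56.3, 60.5 and 62.7 CPM (55.02 ± 6.95, SD, n = 5), and 4 of the 5 lay below every water library. At 10.2 µg/L they had 51.3, 50.0, 72.3, 66.4 and 71.4 CPM (62.3 ± 10.9, SD, n = 5). Replicates A and B there were below all water libraries, and the other three were inside the water range.

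Fitted over all 26 libraries, the log2 fold change of slc15a1a against water was -0.15 ± 0.15 (SE) at 0.19 µg/L, 0.02 ± 0.13 at 0.74 µg/L, -0.34 ± 0.13 at 3.38 µg/L, -0.16 ± 0.13 at 10.2 µg/L and -1.02 ± 0.15 at 47.2 µg/L. These 5 differences share the same water libraries, which also helped to choose the transcript. Ranked by mean CPM, the groups ran from 0.74 µg/L through water, 0.19 µg/L, 10.2 µg/L and 3.38 µg/L to 47.2 µg/L, and the ranges of neighbouring groups overlapped at each step except the last. With each library's fragment length as a covariate, the slc15a1a log2 fold change was -0.38 at 0.19 µg/L and -0.28 at 0.74 µg/L, the groups with the longest fragments. In the authors' deposited tables, the log2 fold change of slc15a1a was -0.15 ± 0.14, 0.01 ± 0.12, -0.34 ± 0.12, -0.16 ± 0.12 and -1.02 ± 0.15 (SE) in the same order of concentrations.

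The aqp8a.1 level was close to that in water at 0.74, 3.38 and 10.2 µg/L, lower at 0.19 µg/L, and 62.7% of the water level at 47.2 µg/L. In water, replicates A to E had 100.1, 101, 85.1, 101 and 106 CPM (98.7 ± 7.98, SD, n = 5), so replicate C stood below the other four. At 47.2 µg/L, replicates A, B and C had 75.5, 55.1 and 55.1 CPM (61.9 ± 11.8, SD, n = 3). Again all 3 were below every other library of the study in CPM, though not in TPM, and replicate A was again the highest of them. At 0.19 µg/L the 3 libraries had 82.7, 77.7 and 84.9 CPM (81.7 ± 3.69, SD, n = 3), each of them under the lowest water library in CPM. That difference was -0.27 ± 0.13 on the log2 scale (SE), in a group of 3 with longer fragments than water, and -0.35 when fragment length entered the model.

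The other 3 concentrations gave similar aqp8a.1 levels. At 0.74 µg/L, replicates A to E had 109.9, 97.1, 83.2, 98.0 and 97.2 CPM (97.1 ± 9.45, SD, n = 5), and at 3.38 µg/L they had 88.0, 92.5, 84.5, 97.9 and 121 CPM (96.8 ± 14.6, SD, n = 5). At 10.2 µg/L they had 84.3, 92.6, 102, 90.6 and 124 CPM (98.7 ± 15.5, SD, n = 5). In each of the 3 groups, 1 library of aqp8a.1 lay above and 1 below the whole water range. The fitted log2 fold changes against water were -0.02 ± 0.11 at 0.74 µg/L, -0.03 ± 0.11 at 3.38 µg/L, -0.00 ± 0.11 at 10.2 µg/L and -0.67 ± 0.13 at 47.2 µg/L (SE). By mean CPM the order was water, 10.2, 0.74, 3.38, 0.19 and 47.2 µg/L, and as for slc15a1a the ranges of neighbours overlapped at every step except the last. The authors' deposited tables give aqp8a.1 log2 fold changes of -0.28 ± 0.13, -0.03 ± 0.11, -0.03 ± 0.11, 0.00 ± 0.11 and -0.67 ± 0.13 (SE) from the lowest to the highest concentration. In these pools, fewer cells of a type and less RNA per cell cannot be told apart.

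**Figure D1:**
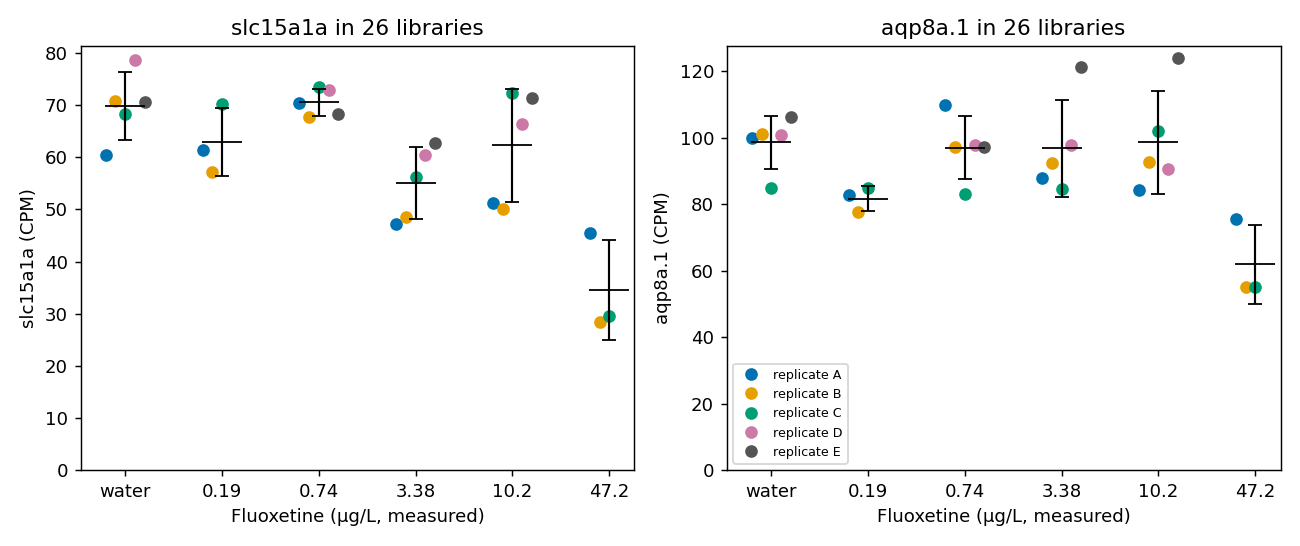
Levels of slc15a1a (left) and aqp8a.1 (right) in CPM (linear axis from 0) for each of the 26 libraries, by measured fluoxetine concentration in µg/L. Points are libraries coloured by replicate letter, and horizontal ticks with bars are group means ± SD. The 3 libraries at 47.2 µg/L are the lowest in both panels, with replicate A above B and C (45.5 CPM for slc15a1a and 75.5 CPM for aqp8a.1).

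Whether the transcripts differed among the 4 lower concentrations was tested in the 18 libraries of these groups, with neither water nor 47.2 µg/L in the fit. The same 18 libraries had helped to set the spread in the fit of all 26 from which the transcripts were chosen, and with only water and 47.2 µg/L fitted 0 transcripts were called. Of the 2, 0 passed edgeR's quasi-likelihood F-test, which 1.55% of all 42573 transcripts tested passed, and 1 had an unadjusted p below 0.05, as 14.5% of all did. For slc15a1a the unadjusted p was 0.0390 and the edgeR adjusted p 0.307, and for aqp8a.1 they were 0.202 and 0.643. DESeq2 also called 0 of the 2, as against 7.97% of all (adjusted p = 0.102 for slc15a1a and 0.483 for aqp8a.1). Per doubling of concentration, the slc15a1a level had a log2 slope of -0.028 ± 0.024 (SE, edgeR adjusted p = 0.591) and aqp8a.1 one of 0.036 ± 0.021 (adjusted p = 0.362). Of the 2, 0 passed after adjustment, as against 7.31% of all transcripts, and 0 had an unadjusted p below 0.05, as against 21.3%. DESeq2 was not run for the slope. Neither background share was stable. With fragment length as a covariate, 1 transcript passed the F-test in place of 659 and 1 passed the slope test in place of 3111. Leaving out 1 library at a time gave between 149 calls by the F-test, without replicate B at 0.74 µg/L, and 1331, without replicate D at 10.2 µg/L, and for the slope between 1571, without replicate B at 10.2 µg/L, and 4398, without replicate D at 10.2 µg/L. Fragment length differed along these concentrations, and the slc15a1a slope in the fit with it was 0.042, the opposite sign.

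Set beside its paralog per unit of length, slc15a1a was the minor of the pair, and it was a smaller part at 47.2 µg/L. In water slc15a1a had 37.9, 41.4, 40.4, 47.9 and 41.1 transcripts-per-million (TPM, the authors' length-scaled values), where slc15a1b had 125, 135, 148, 136 and 114 TPM. In replicates A, B and C at 47.2 µg/L, slc15a1a had 28.0, 16.8 and 18.2 TPM and slc15a1b 199, 116 and 146 TPM. Replicate A thus had the highest level of both paralogs within that group. The slc15a1a share of the summed TPM of the pair was 24.1 ± 2.103% in water (SD, n = 5, range 21.4% to 26.5%) and 12.1 ± 0.859% at 47.2 µg/L (SD, n = 3, range 11.1% to 12.7%). At 0.19, 0.74, 3.38 and 10.2 µg/L the mean share was 21.7%, 22.7%, 21.3% and 20.8%. Relative to its mean, the share varied less between the 3 libraries at 47.2 µg/L than the slc15a1a level itself, and it did not overlap that of any other group. The summed TPM of slc15a1a and slc15a1b was 173 ± 14.1 in water (SD, n = 5) and 174 ± 47.9 at 47.2 µg/L (SD, n = 3). Since the share contains the slc15a1a level that led to its choice, it too is a description.

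The water channel was the major transcript of its tandem pair. The ratio of aqp8a.1 to aqp8a.2 in TPM was 2.49 ± 0.333 in water (SD, n = 5, range 2.24 to 3.03) and 1.68 ± 0.355 at 47.2 µg/L (SD, n = 3, range 1.29 to 1.98). At 0.19 µg/L it was 1.999 ± 0.147 (SD, n = 3, range 1.87 to 2.16), below the range in water and overlapping that at 47.2 µg/L. The ranges at 0.74 µg/L (1.89 to 2.94), 3.38 µg/L (1.97 to 2.78) and 10.2 µg/L (1.75 to 2.69) overlapped both water and 47.2 µg/L. The aqp8a.2 transcript had 48.2, 53.6, 50.1, 63.9 and 64.8 TPM in water and 55.2, 42.9 and 61.9 TPM at 47.2 µg/L. Those ranges overlapped, while the aqp8a.1 levels, at 118 to 146 TPM in water and 75.8 to 109 TPM at 47.2 µg/L, did not, although the upper value there was above the 106 TPM of replicate B at 0.19 µg/L. In TPM the aqp8a.1 levels at 0.19 µg/L (106 to 120) overlapped those in water, unlike in CPM. The ratio of slc15a1a to aqp8a.1 in TPM was 0.303 ± 0.0349 in water (SD, n = 5, range 0.259 to 0.343) and 0.236 ± 0.0186 at 47.2 µg/L (SD, n = 3, range 0.222 to 0.257), ranges that lay close together without overlapping. The ratio at 3.38 µg/L (0.221 to 0.283, mean 0.244) and 10.2 µg/L (0.231 to 0.313) overlapped that at 47.2 µg/L. At 0.19 µg/L (0.316 to 0.353) and 0.74 µg/L (0.272 to 0.376) it lay above. Both ratios contain levels that led to the choice of the transcripts, so they too are descriptions.

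**Figure D2:**
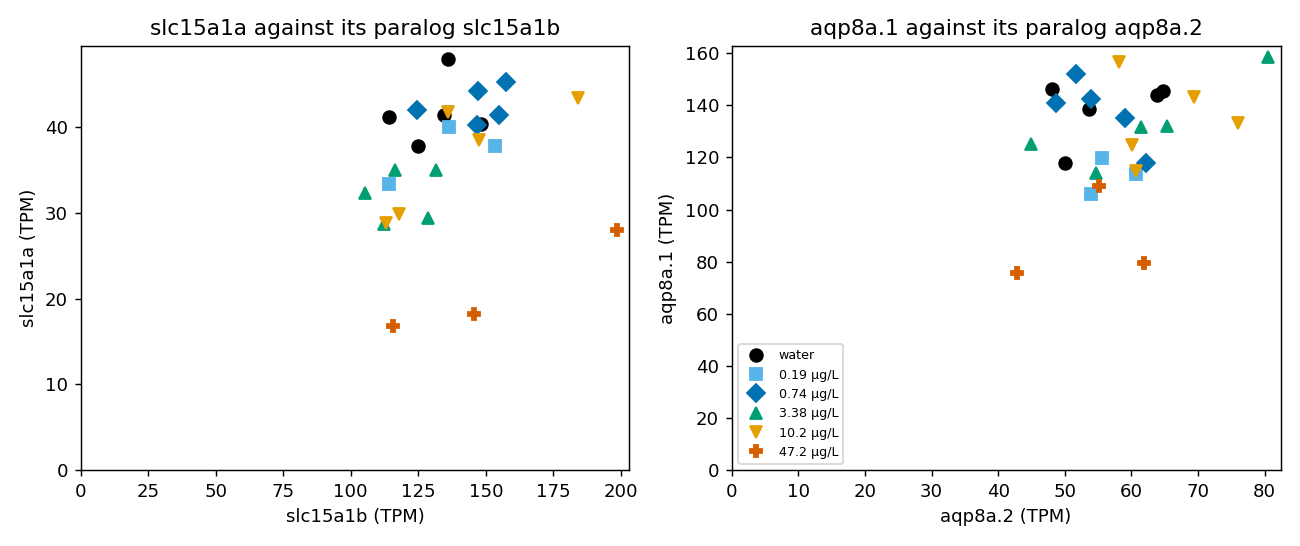
TPM of slc15a1a against slc15a1b (left) and of aqp8a.1 against aqp8a.2 (right), each point 1 of the 26 libraries, coloured and shaped by concentration in µg/L, both axes linear from 0. In the left panel the points for 47.2 µg/L lie below all others on the vertical axis (slc15a1a 16.8 to 28.0 TPM) and within or above their range on the horizontal axis (slc15a1b 116 to 199 TPM).

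The other members of both families were tested, since their levels did not lead to the choice, although earlier results of these data were known. Between 47.2 µg/L and water, edgeR called 0 of the 3 other slc15 transcripts and 0 of the 14 other aquaporin transcripts (adjusted p below 0.05, as for 0.103% of all 43837 transcripts). At an unadjusted p below 0.05, which 9.34% of all transcripts reached, slc15a4, a transporter of histidine and peptides in endosomes and lysosomes, was higher, and among aquaporins 1 transcript was higher and 5 were lower. The log2 fold change was 0.19 ± 0.15 for slc15a1b (SE, edgeR adjusted p = 0.820), -0.46 ± 0.24 for slc15a2, a peptide transporter best known from kidney and brain (adjusted p = 0.571), and 0.80 ± 0.23 for slc15a4 (adjusted p = 0.238). For aqp8a.2 it was -0.11 ± 0.16 (adjusted p = 0.968). The slc15a1a value of -1.02 lay outside these, but the difference between paralogs was not tested.

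Aquaporins other than aqp8a.1 lay on both sides of 0, and none passed edgeR's test. The log2 fold changes farthest below 0 were -0.84 ± 0.19 for aqp9a (SE, edgeR adjusted p = 0.0992), -0.68 ± 0.20 for aqp10a (adjusted p = 0.247) and -0.51 ± 0.15 for aqp9b (adjusted p = 0.251). For mipa, a lens water channel, it was -0.49 ± 0.17 (adjusted p = 0.350), and for aqp11 -0.32 ± 0.12 (adjusted p = 0.387). DESeq2 called aqp9a, aqp9b and aqp10a lower and slc15a4 higher. The aquaporin most abundant per length, aqp3a of skin and other epithelia (156 TPM on average), had 0.16 ± 0.30, aqp7 had 0.57 ± 0.44 (adjusted p = 0.808), and aqp1a.1, the channel of red cells and vessels, had 1.07 ± 0.45 (adjusted p = 0.452). The median over the 14 aquaporins was -0.20, with 9 below 0, against 0.00 over all transcripts tested.

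Within groups, libraries with more slc15a1a also tended to have more aqp8a.1. After subtracting each group's mean from log2 CPM, Pearson's r between the transcripts was 0.643 (p = 0.00578) and Spearman's rho 0.618 (p = 0.00619) over 26 libraries, by a two-sided permutation test with 100000 resamples within groups. It was the only relation tested in this way. Replicate A at 47.2 µg/L, above its group mean by 0.43 for slc15a1a, and replicate B at 10.2 µg/L, below it by 0.30, were the farthest on the log2 scale. Without both, r was 0.573 (p = 0.0162) and rho 0.581 (p = 0.0144) by the same permutation test. Leaving out 1 library at a time gave r between 0.518, without replicate A at 47.2 µg/L, and 0.700. Both values of a library share its scaling and its pool of larvae.

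**Figure D3:**
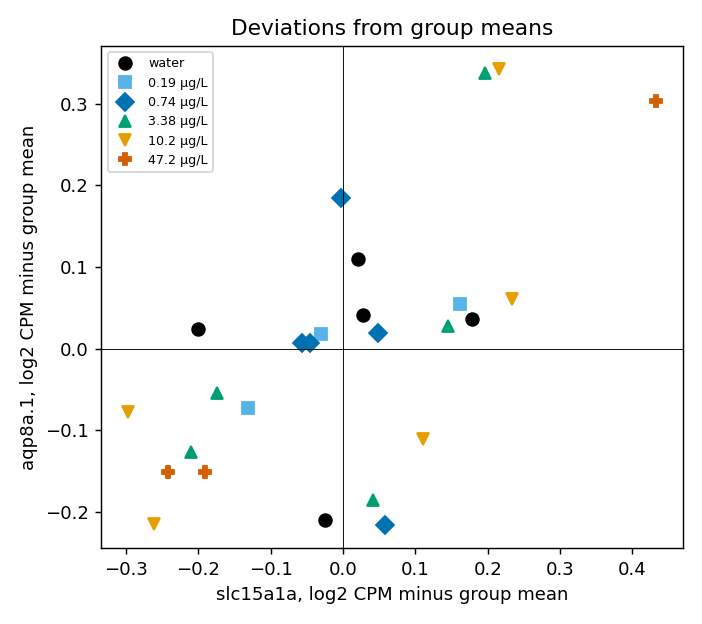
Deviation of each library from its group mean in log2 CPM, slc15a1a on the horizontal and aqp8a.1 on the vertical axis, 26 libraries coloured and shaped by concentration. Replicate A at 47.2 µg/L is the farthest to the right (0.43), and r over all points is 0.643.

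The transcripts most like slc15a1a in these deviations, out of 21445 with a gene symbol and at least 1 CPM on average, were slc12a10.1, a sodium chloride cotransporter (r = 0.806), slc7a7, a basolateral carrier of cationic amino acids (0.796), ctsz, the lysosomal cathepsin Z (0.787), the phospholipid flippase gene atp8b5b (0.779) and tmem51b (0.772). The paralog slc15a1b ranked 9 (r = 0.743), the more alike of 2 transcripts of vil1, the microvillus protein villin, ranked 24 (0.692), and aqp8a.1 ranked 62. These 5 leading transcripts had log2 fold changes against water at 47.2 µg/L of 0.13 ± 0.42, 0.20 ± 0.23, 0.49 ± 0.13, -0.06 ± 0.14 and -0.03 ± 0.29 (SE), and 0 of them passed edgeR's test. With group means left in, slc15a1b ranked only 2138 by likeness to slc15a1a (r = 0.259). Likeness within groups and the level at 47.2 µg/L thus differed for the paralog. These correlations over 26 libraries are descriptions, and the transcripts share library scaling and depth.

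For aqp8a.1, the most alike by the same measure were oxa1l, an insertase of the inner mitochondrial membrane (r = 0.717), the splicing factor gene syf2 (0.708), usp36, a nucleolar deubiquitinase (0.699), mat2b, a subunit of methionine adenosyltransferase (0.698), and rps19bp1 (0.698). None of these is an intestinal transporter, while slc15a1a ranked 34 (r = 0.643) and fabp2, the intestinal fatty acid binding protein, 88 (0.583). With group means left in, r also holds the low levels at 47.2 µg/L that chose the members. Then the leading transcripts for slc15a1a were epdl2, an ependymin-like gene (r = 0.821), aqp8a.1 (0.799), mep1a.1, a meprin metalloproteinase subunit of the brush border (0.797), agmo, an ether lipid cleaving enzyme (0.770), and lrp2b, an endocytic receptor of the megalin type (0.762). For aqp8a.1 they were fabp6, the ileal bile acid binding protein (0.832), mipa (0.803), slc15a1a (0.799), epdl2 (0.796) and camk2g2, a calmodulin-dependent kinase (0.792). The log2 fold change at 47.2 µg/L of epdl2 was -1.05 ± 0.21 (SE, edgeR adjusted p = 0.0523), that of agmo -0.56 ± 0.12 (adjusted p = 0.0705) and that of camk2g2 -2.04 ± 0.44 (adjusted p = 0.0760).

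Other genes of intestinal uptake and of the organs around the gut were read from 13 lists, of whose 334 symbols 235 had a transcript. These lists were chosen with earlier results of these data known. Counts of calls within them, here and below, are therefore not independent of those results. Comparing 47.2 µg/L with water, edgeR called 2 of the 290 listed transcripts tested besides slc15a1a and aqp8a.1, 1 higher and 1 lower, where 0.073% of all transcripts were called higher and 0.0297% lower. The lower was ggt1b, a gamma-glutamyltransferase that cleaves glutathione at the cell surface, with 19.5, 28.5, 26.5, 23.95 and 23.02 CPM in water and 11.0, 15.0 and 13.9 CPM at 47.2 µg/L. These groups did not overlap (log2 fold change -0.87 ± 0.16, SE, adjusted p = 0.0307). The higher was prss59, a trypsin-like protease of the exocrine pancreas, with 14.8, 16.6, 16.0, 15.9 and 15.1 CPM in water and 30.6, 23.6 and 24.2 CPM at 47.2 µg/L (0.74 ± 0.13, SE, adjusted p = 0.0156). With only the libraries of water and 47.2 µg/L in the fit, 0 of the listed transcripts were called. Without replicate A at 47.2 µg/L neither passed, nor did prss59 without water replicate E (adjusted p = 0.0604), and the ggt1b call was lost without any of water replicates B, C, D and E or replicate A or C at 47.2 µg/L.

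As a group, the listed transcripts of enterocyte identity and structure did not share the direction of slc15a1a and aqp8a.1. Over 49 transcripts of enterocyte identity and structure the median log2 fold change at 47.2 µg/L was 0.05, with 26 above and 23 below 0, and edgeR called 0 (unadjusted p below 0.05 in 4 higher and 1 lower). Their summed level, which does not include fabp2, was 1204 to 1528 TPM in water and 1400 to 1750 TPM at 47.2 µg/L. Defining enterocyte markers were added after their values were seen, and lay on both sides of 0. The homeobox gene cdx1b had 0.10 ± 0.14 (SE), the cadherin cdh17 -0.16 ± 0.14 and the claudin cldn15la 0.06 ± 0.16. Of 2 vil1 transcripts, the one more like slc15a1a had 0.14 ± 0.14 and the other -0.45 ± 0.37. The defining gene fabp2 was not among the 49 transcripts and had -0.50 ± 0.15 (edgeR adjusted p = 0.247). It averaged 1247 TPM over all libraries, so the summed level leaves out an abundant enterocyte transcript. Among listed transcripts of at least 1 CPM, those farthest from 0 were eps8l3a (3.01 ± 2.05), hnf4g (-1.38 ± 1.77), elf3 (0.80 ± 0.32) and cdx4 (-0.72 ± 0.24). DESeq2 called fabp2 (adjusted p = 0.0411) and cdx4 (adjusted p = 0.0381) lower.

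Most transcripts of 3 absorptive lists lay below 0 at 47.2 µg/L, where 21876 of all 43837 transcripts lay below 0 and 2026 were lower at an unadjusted p below 0.05. For 28 transcripts of sugar, lipid and bile acid uptake the median was -0.15, with 19 below 0, and 10 lower and 0 higher at an unadjusted p below 0.05, among them slc2a1a (-1.09 ± 0.32, SE), slc2a5 (-0.94 ± 0.23), carriers of glucose and fructose, and fabp6 (-0.70 ± 0.17). For 26 peptidases of the brush border it was -0.15, with 19 below 0, 7 lower and 1 higher at an unadjusted p below 0.05, among them mep1ba (-1.46 ± 0.53) and mep1a.1 (-0.62 ± 0.14). For 9 transcripts of lysosome-rich enterocytes, which take up whole protein, it was -0.56, with 8 below 0 and 3 lower and 0 higher at that threshold, and the summed level was 1301 to 1686 TPM in water and 906 to 1457 TPM at 47.2 µg/L. This list shares fabp6 with the previous one and holds lrp2b (-0.75 ± 0.23). Apart from ggt1b, edgeR called 0 of the transcripts in these 3 lists. DESeq2, which called 755 transcripts in all at 47.2 µg/L, called 14 listed transcripts lower and 3 higher. Of all 52606 transcripts entered, listed or not, it called 0.789% lower and 0.646% higher. The listed higher ones were prss59, slc15a4 and the amino acid carrier slc7a6 (0.37 ± 0.11, SE, DESeq2 adjusted p = 0.0461). The listed lower ones besides ggt1b, aqp9a, aqp9b and aqp10a were fabp6, fabp2, the fatty acid receptor cd36, the sugar carriers slc2a1a, slc2a2 and slc2a5, the peptidases mep1a.1 and naaladl1, the homeobox gene cdx4 and the liver clotting factor f7.

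The lists closest in function to slc15a1a had medians near 0. The median was -0.02 over 26 amino acid transporters, with 13 on each side of 0, and -0.00 over 18 transcripts of sodium and proton exchange and of the apical scaffold, which bear on the proton gradient that peptide uptake uses. In both, edgeR called 0, and DESeq2 called slc7a6 alone among them. At an unadjusted p below 0.05 were 7 of the 26 amino acid transporters, 5 higher and 2 lower. Of the exchange and scaffold transcripts 0 were, as against 9.34% of all transcripts. Among transcripts with at least 1 CPM on average, the values farthest from 0 were 1.32 ± 1.72 for slc43a2b (SE) and 0.63 ± 0.22 for slc1a5, both amino acid carriers, and -1.67 ± 1.47 for the sodium, potassium and chloride cotransporter slc12a2 and 0.44 ± 0.32 for slc9a3.2, a sodium and proton exchanger.

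Among markers of other organs only prss59 passed edgeR's test at 47.2 µg/L, and the summed levels of the pancreas and liver lists overlapped between the groups. Most transcripts of each of these 2 lists lay on the same side of 0, and their part in the slc15a1a and aqp8a.1 levels was not tested. For 16 exocrine pancreas transcripts the median log2 fold change was 0.30, with 15 above 0, and their summed level was 3252 to 6391 TPM in water and 4661 to 9342 TPM at 47.2 µg/L. For 22 hepatocyte transcripts it was -0.19, with 20 below 0, and their summed level was 8652 to 11175 TPM in water and 7143 to 9365 TPM at 47.2 µg/L. The medians for goblet and enteroendocrine cells (25 transcripts), kidney tubule (23) and gut smooth muscle and enteric neurons (34) were 0.01, 0.06 and 0.09. In the exocrine pancreas, hepatocyte and kidney lists, all defining markers with a transcript were above 0 in every library. The median log2 fold change of the exocrine pancreas list was also above 0 at 0.19 and 0.74 µg/L (0.39 and 0.28). At 3.38 and 10.2 µg/L it was below 0 (-0.07 and -0.21).

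**Figure D4:**
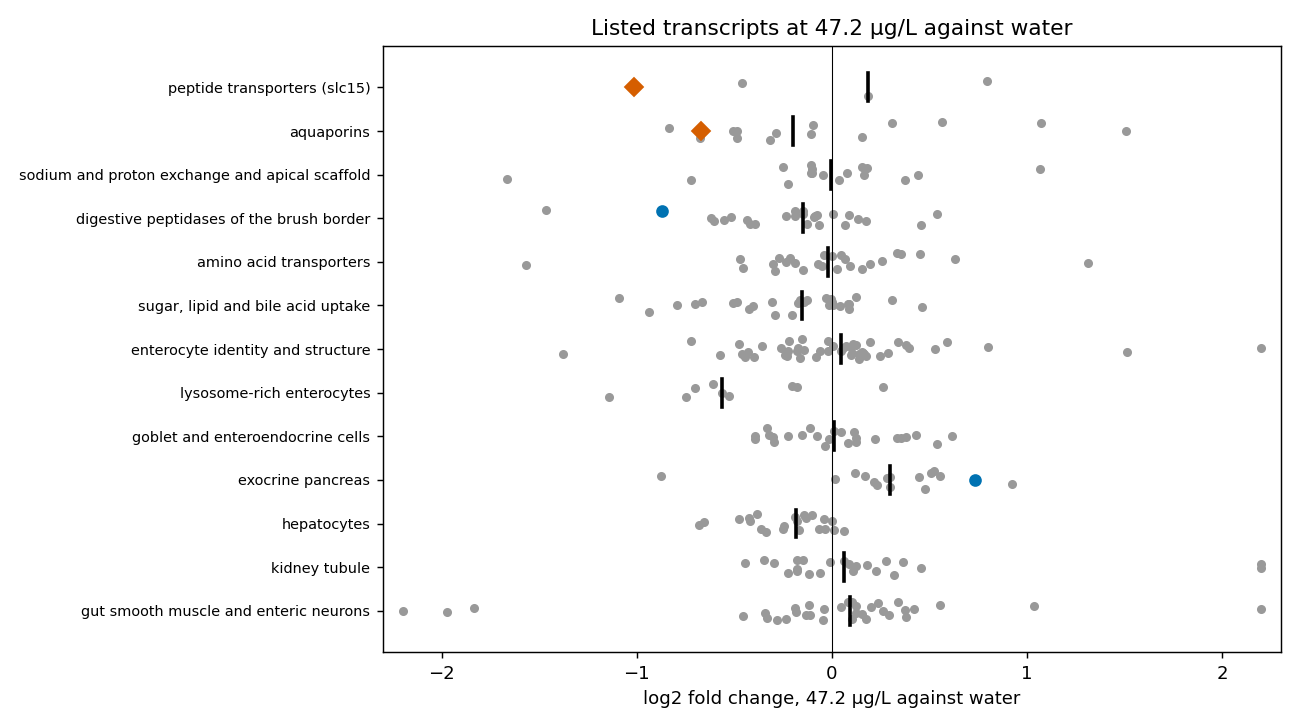
Log2 fold change at 47.2 µg/L against water (horizontal axis) of 290 listed transcripts by list. Grey points are transcripts, blue points those called by edgeR (ggt1b and prss59), black bars list medians without the members, and orange diamonds slc15a1a (-1.02) and aqp8a.1 (-0.67). Points beyond 2.2 in either direction are drawn at that limit (5 points), and transcripts in more than 1 list appear in each.

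At the lower concentrations edgeR called 0 of the 290 listed transcripts in each comparison with water. Over all transcripts 0.0502% were called at 0.19 µg/L, 0.089% at 0.74 µg/L and 0% at 3.38 and 10.2 µg/L. At an unadjusted p below 0.05 there were 23, 18, 16 and 19 listed transcripts from 0.19 to 10.2 µg/L, where 8.75%, 8.09%, 4.17% and 5.34% of all transcripts were. DESeq2 called 3 listed transcripts at 0.19 µg/L and 0 at the others, and of all transcripts 1.06%, 0.911%, 0.133% and 0.188% in the same order. In the tests among the 4 lower concentrations, edgeR called 5 of 289 listed transcripts by the F-test. By the slope it called 27, 11 upward and 16 downward, among them 6 of 16 exocrine pancreas transcripts, all downward. Of all transcripts 1.55% passed the F-test and 7.31% the slope test, but only 1 passed each with fragment length as a covariate. At 0.19 µg/L every aqp8a.1 value lay under those in water in CPM, though not in TPM. At this concentration aqp9a had a log2 fold change of -0.80 ± 0.19 (SE, edgeR adjusted p = 0.171), aqp8a.2 one of 0.03 ± 0.16 and slc15a1b one of 0.04 ± 0.15. At 3.38 µg/L, 4 of 5 slc15a1a values in CPM lay under those in water. In TPM slc15a1a had 28.7 to 35.0 there and 37.9 to 47.9 in water. At 3.38 µg/L the median over enterocyte identity transcripts was 0.02 and over brush border peptidases -0.06. The summed level of the enterocyte identity list was 1090 to 1344 TPM there, and 1204 to 1528 TPM in water. The 3 other slc15 transcripts all lay below 0 at 3.38 µg/L (median -0.11), with 0 at an unadjusted p below 0.05.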

How the data were processed

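RNA was sequenced from 26 pools of whole larvae in 6 groups. Per the submitters' processing notes, Trimmomatic 0.38, kallisto and DESeq2 were used. The index and genome build were not given in the sources used here. For each RefSeq transcript the authors deposited an estimated count, a TPM value, its length and its effective length. Fragment length was taken as the median difference of both lengths over transcripts of at least 3000 bases. The authors' deposited comparison tables hold, per the file headers, a mean normalized count (a signal over samples), a log2 fold change with its standard error, a test statistic (a score) and p-values, and entered no test here.

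The 2 transcripts and the gene lists were chosen with earlier results of these data known. Symbols came from a RefSeq gene table (assembly fPimPro1.hap1.1), which matched 31554 of 57299 transcripts (55.1%, with 82.6% of counts) by accession without version. Estimated counts were rounded and tested per transcript with edgeR 4.0.16 (limma 3.58.1, R 4.3.3). Low counts were removed with filterByExpr (43837 transcripts kept in the fit of 26 libraries, 42573 in that of 18), TMM factors ran from 0.951 to 1.04, and the quasi-likelihood fit was robust. Tests were two-sided and Benjamini-Hochberg adjusted over all transcripts of a fit, and called below 0.05. Standard errors came from each fold change and its F statistic. CPM is scaled by TMM. p-values measure the spread between pools, and floors cover counting error only. All 46 replicate pairs differed by more than sampling noise (chi-square per degree of freedom at least 15.7).

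Named were the 2 transcripts, other slc15 and aquaporin transcripts of at least 1 TPM, listed transcripts that were called, up to 4 more per list with the largest fold change at 47.2 µg/L and at least 1 CPM, and the 5 transcripts most like each member. Of these, the ones that bear on the members are printed, and defining markers and the transcripts called by DESeq2 were added after their values were seen. The alternatives were DESeq2 1.42.0, median-ratio scaling, no filter, sums per gene, a replicate block, fragment length as a covariate, a fit of the compared groups alone, and leaving out each library. The labels give replicate letters with no shared batch. Deviations of same-letter libraries from their group means correlated above 0.1 in every pair between water and 0.74 µg/L (0.105 to 0.251) and between water and 10.2 µg/L (0.115 to 0.244), and not in every pair for the other concentrations.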

Additional observations from a re-analysis of the deposited data

Results flagged for a closer look

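In 84 groups of 5 libraries (21 transcripts), 6 held a library far from the others by Dixon's criterion, where chance gives about 1 in 20. The groups of 3 libraries, at 0.19 and 47.2 µg/L, were not checked. The aqp8a.1 level in water replicate C was 85.1 CPM, against 100.1 to 106 CPM in the other water libraries. Among other aquaporins these were aqp3a in replicate D at 10.2 µg/L (237.6 CPM, others 75.2 to 111), mipa in replicate E at 3.38 µg/L (70.0 CPM, others 44.1 to 48.5) and aqp1a.2 in replicate B at 0.74 µg/L (4.56 CPM, others 1.64 to 2.37). The slc15a1b level in replicate B at 0.74 µg/L was 221.6 CPM, against 270.3 to 289 CPM in the others. The ggt1b level in replicate C at 0.74 µg/L was 23.9 CPM, against 21.7 to 22.2 CPM. No library of slc15a1a stood apart by this criterion in the groups of 5.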

How the results depend on the processing

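At 47.2 µg/L the log2 fold change of slc15a1a lay between -1.05 and -0.95 and that of aqp8a.1 between -0.68 and -0.61 under the 7 other settings, and between -1.27 (without replicate A at 47.2 µg/L) and -0.90, and -0.84 and -0.60, without single libraries. With fragment length as a covariate slc15a1a moved to -0.38 at 0.19 µg/L and -0.28 at 0.74 µg/L, and its slope reversed to 0.042. Neither transcript passed the test of the 4 lower concentrations under any setting run (adjusted p for slc15a1a from 0.0709 with the replicate block to 0.99995 with fragment length). Listed transcripts called at 0.19 µg/L numbered 2 with the replicate block and 3 by DESeq2. At 47.2 µg/L, 3 were higher by DESeq2 and 0 with the compared groups alone, and 4 were lower with the replicate block (ggt1b, slc2a1a, aqp9a and f7), 14 by DESeq2 and 0 with the compared groups alone. Without single libraries both counts ranged from 0 to 1. Over all transcripts the 45 calls at 47.2 µg/L became 755 by DESeq2, 182 with the replicate block, 101 for sums per gene, 29 without a filter, 0 with the compared groups alone, and 8 to 62 without single libraries. For water with 0.19 µg/L, same-letter deviations correlated at -0.002 to 0.037 (other letters -0.005 on average). For water with 3.38 µg/L same-letter r was 0.070 to 0.243 (other letters -0.034). For water with 47.2 µg/L it was 0.028 to 0.237 (other letters -0.030). With letter effects subtracted as a block, r between the transcripts was 0.811. At 47.2 µg/L the block added the calls of slc2a1a, aqp9a and f7, which edgeR did not call without it. The cause of these shifts was not tested. Groups of 3 and whole-body pools limit what could be detected.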
